A study of Homo sapiens with 2 samples.

Results

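The genes described here are the transcription factor NRF2 (gene symbol NFE2L2), its inhibitor KEAP1, and 8 genes known as NRF2 targets: NQO1, GCLC, GCLM, TXNRD1, SRXN1, HMOX1, ME1 and OSGIN1. They were taken by symbol from the deposited tables and are 10 of the 27685 genes listed. Each symbol was found once, and together they have 29 listed transcripts. RNA-seq was performed on 1 library of H2087 cells and 1 library of H596 cells. Both are established human cell lines whose labels give lung adenocarcinoma as the cell type. Both were untreated and grown in the same serum-containing medium. The differences below are between these 2 libraries, so they have no replicate check and were not tested.

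NRF2 is the main transcription factor of the antioxidant response. In unstressed cells KEAP1 binds NRF2 and holds it to a CUL3 ubiquitin ligase, which keeps NRF2 protein short-lived. Oxidants and electrophiles modify cysteines of KEAP1, NRF2 then accumulates, pairs with small MAF proteins and binds antioxidant response elements near its target genes. The targets encode enzymes that reduce quinones, make glutathione, recycle thioredoxin, supply NADPH and break down heme. In lung cancers the pathway is known to be altered by mutations of KEAP1 or NFE2L2; the DNA of these cells was not analysed here.

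The antioxidant response element has the core TGACNNNGC, in which N is any base. A frequent form of it, TGACTCAGC, also holds the AP-1 site TGACTCA. The exact form TGACTCAGC was searched on both strands from 10000 bases before to 500 bases after the listed start of each gene's most abundant transcript in GRCh37. It was found for 5 of the 10 genes, NQO1, GCLC, TXNRD1, HMOX1 and ME1, and for 13.3% of the 12126 genes of known strand whose mean FPKM was at least 1 (FPKM, fragments counted per length of transcript and per sequencing depth). The window was chosen after the data were seen. The matches are shown because they spell the element through which NRF2 is known to reach its targets. Each line reads 5' to 3' on the strand named, with the 9 matching bases in capitals, and the position in brackets is that of the first base of the match along the gene, counted from the listed start.
NQO1, chr16:69760899-69760928, minus strand (-385): gcagtcacagTGACTCAGCagaatctgagc
GCLC, chr6:53413036-53413065, plus strand (-3128): ccgcctccccgTGACTCAGCgctttgtgcg
TXNRD1, chr12:104674037-104674066, plus strand (-6413): gtgacctccaTGACTCAGCccttaccttat
HMOX1, chr22:35773139-35773168, minus strand (-3911): ggaggcactggTGACTCAGCaaaatctagc
HMOX1, chr22:35768089-35768118, minus strand (-8961): tctctagaccgTGACTCAGCgaaaacagac
HMOX1, chr22:35768060-35768089, minus strand (-8990): caccgggaccgTGACTCAGCgaaaacagat
HMOX1, chr22:35768002-35768031, minus strand (-9048): cctcgggaccgTGACTCAGCaggaaaaaca
ME1, chr6:84140888-84140917, minus strand (32): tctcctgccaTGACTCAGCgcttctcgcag

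HMOX1 held 4 of these 8 matches, 3 of them close together between -9048 and -8961, whereas the NQO1 and ME1 matches lay near the start. The shorter core TGACNNNGC, searched from 1000 bases before to 500 after the start, a window also chosen after the data were seen, was found for 7 of the 10 genes and for 46.3% of the same background. For GCLM the match was TGACTAAGC, at 135 bases from the listed start, without the AP-1 site:
GCLM, chr1:94375001-94375030, plus strand: ctggaagacaaTGACTAAGCagaaatcgta
In the RefSeq promoters of GRCh38.p14, which span 250 bases before to 50 after a start, the core was found for 4 of the 9 genes that have an entry, KEAP1, GCLM, TXNRD1 and ME1. Counted by promoter, 5 of the 12 promoters of these 9 genes held it, beside 13.3% of all 35116 promoters of this length. The GCLM match and the exact ME1 match printed above were found again in these promoters as the same bases. They lay before the RefSeq starts, at -34 for GCLM and -137 for ME1, so the searches are not independent. KEAP1 and SRXN1 had no match of either form in these windows around the listed start, and all 10 genes had the AP-1 site TGACTCA within the longer window, as did 79.2% of the background. These are matches of letters and no measure of NRF2 binding.

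**Figure D1:**
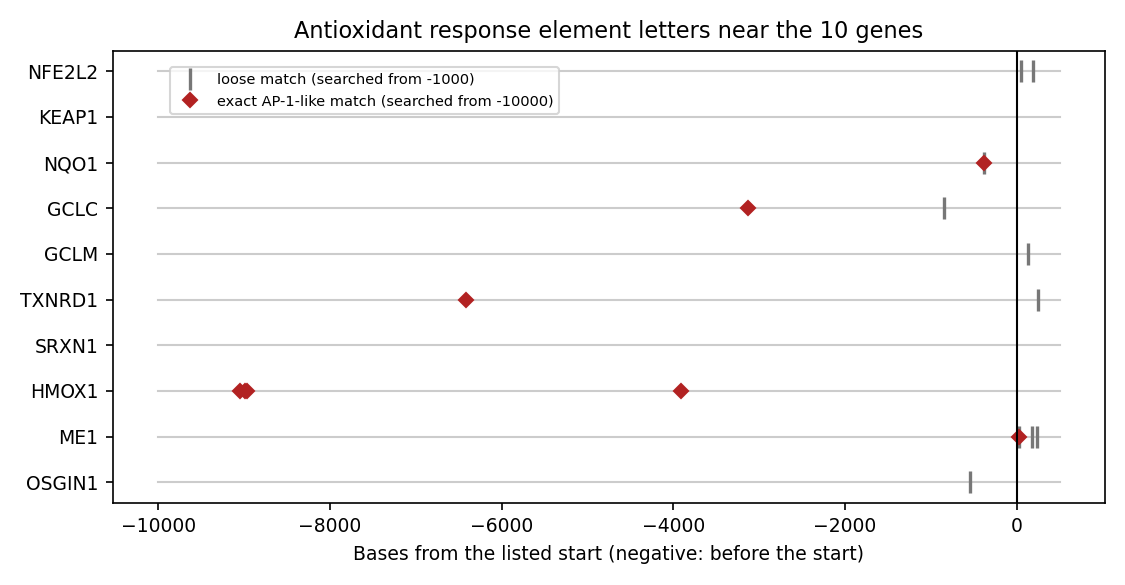
Matches of antioxidant response element letters along the sequence around the listed start of each of the 10 genes, in bases from the start. Grey ticks are matches of the core searched from 1000 bases before the start, and red diamonds are exact matches of the AP-1-like form searched from 10000 bases before it; HMOX1 has 4 red diamonds, and NQO1, GCLC, TXNRD1 and ME1 have 1 each.

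The total of the estimated counts was 46961500 for H2087 and 55387847 for H596. Markers of lung adenocarcinoma differed between the libraries: 4 of 5 had an FPKM of at least 1 in H2087, against only KRT7 in H596, where NKX2-1 had 0.508 (110.0 in H2087); the summed FPKM was 1023 in H2087 compared with 609 in H596. Of 4 squamous markers, all reached this level in H596 and 1 in H2087, their summed FPKM was 248.8 in H596 against 1.66 in H2087, and TP63 had an FPKM of 55.2 in H596 and 0.183 in H2087. The label of H596 is therefore not matched by the adenocarcinoma markers other than KRT7. All 4 epithelial markers were present in both libraries, with a summed FPKM of 6527 in H2087 and 894 in H596. Most of the sum came from KRT8 (2493 and 536) and KRT18 (3607 and 234). EPCAM was also lower in H596, whereas CDH1 had 52.3 in H2087 and 59.6 in H596. Of 6 stromal, 4 immune and 3 endothelial markers, COL1A1 (3.89 in H2087), DCN (9.77 in H596) and CD68 (128 in H2087, 25.6 in H596) reached an FPKM of 1, while the leukocyte gene PTPRC and the T-cell gene CD3E had 0 counts in both. The part of these markers in the differences below was not tested.

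NFE2L2, which encodes NRF2, was within 2-fold between the cell lines. NFE2L2 (gene 4780, minus strand of chromosome 2, 178095031 to 178129859 in hg19) had an FPKM of 42.3 in H2087 (95% Wilson interval, 41.2 to 43.4) and 62.6 in H596 (61.4 to 63.8). Intervals were carried over from the gene's share of all estimated counts and cover counting error only. The intervals did not overlap, and the level in H596 was 1.48 times that in H2087, under the limit of 2-fold used here. On the scale of log2(FPKM + 1), the difference, H596 minus H2087, was 0.55. The median difference over the 13048 genes whose mean FPKM was at least 1 was 0.12, and relative to it NFE2L2 differed by 0.44. Whether a difference in level reflects RNA per cell or the share of cells that express a gene cannot be told apart in such libraries.

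KEAP1, the inhibitor, was higher in H596. KEAP1 (gene 9817, minus strand of chromosome 19, 10596796 to 10614054) had an FPKM of 11.8 (11.2 to 12.4) in H2087 compared with 46.2 (45.1 to 47.3) in H596, a 3.91-fold difference. The log2 difference was 1.88, and 1.76 relative to the median of all genes. Only 6.16% of the genes compared were as high or higher in H596 by this measure. Of its 40 nearest compared neighbours on chromosome 19, 18 were at least 2-fold higher in H596, beside 18.2% of all genes compared, and 7 had a difference below 0. The median log2 difference of the 40 was 0.95. Their part in the KEAP1 difference was not tested. Per length, NFE2L2 mRNA stood at 3.58 times KEAP1 mRNA in H2087 and at 1.35 times in H596.

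All 8 target genes were lower in H596, by 2.51-fold to 39.6-fold in FPKM. All 8 were also at least 2-fold lower on the log2 scale, as were 14.2% of all genes compared. The targets were proposed with earlier results of these libraries known, so this count is a description. The FPKM values of the 8 targets summed to 1160.0 in H2087 and 106 in H596. The targets took 0.411% of the estimated counts in H2087 (95% interval, 0.409 to 0.412) and 0.0381% in H596 (0.0376 to 0.0386).

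**Figure D2:**
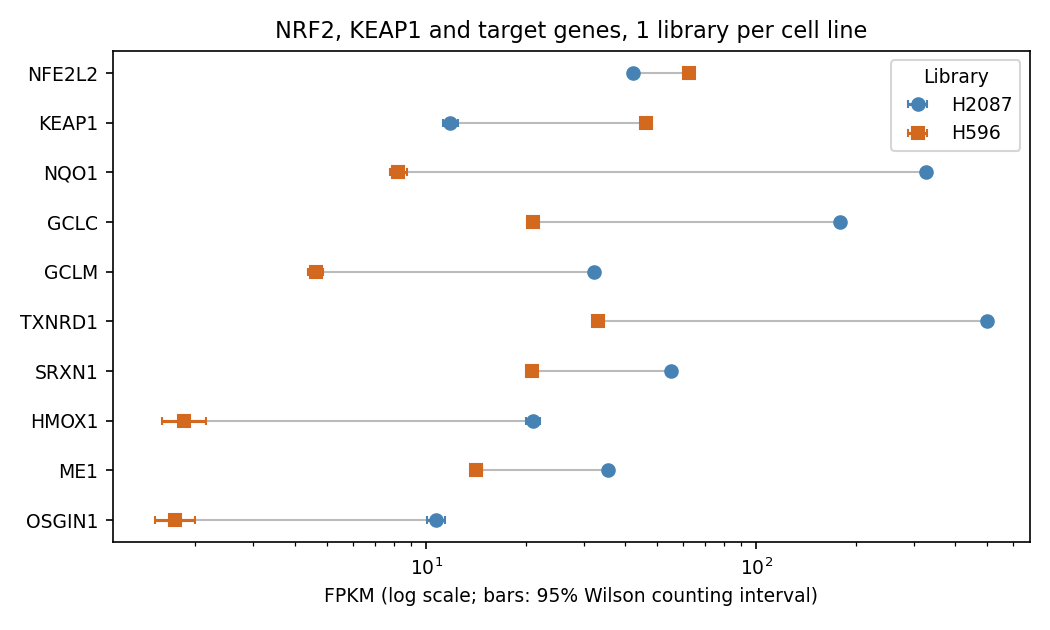
FPKM of the 10 genes on a log axis, with H2087 as blue circles, H596 as orange squares and 95% Wilson counting intervals as bars; a grey line joins the 2 libraries of a gene. NFE2L2 and KEAP1 have the square to the right of the circle, and the 8 target genes have it to the left, with the widest gap for NQO1 (326 against 8.24).

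NQO1 encodes a quinone reductase that transfers a pair of electrons from NADPH or NADH and is a standard readout of NRF2. It lies on the minus strand of chromosome 16 from 69743304 to 69760571 (gene 1728). NQO1 had an FPKM of 326 (323 to 329) from 40294 counts in H2087 compared with 8.24 (7.79 to 8.72) from 1207 counts in H596. This 39.6-fold difference, -5.15 on the log2 scale, was the largest of the 10 genes, and only 38 of the 13048 genes compared, NQO1 included, were as low or lower in H596. NQO1 ranked 176 among all listed genes in H2087 and 7547 in H596.

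GCLC and GCLM encode the catalytic and the modifier subunit of glutamate-cysteine ligase, the rate-limiting enzyme of glutathione synthesis. GCLC (gene 2729, minus strand of chromosome 6, 53362140 to 53409927) had an FPKM of 179 (178 to 181) in H2087 compared with 21.0 (20.4 to 21.6) in H596, an 8.55-fold difference. GCLM (gene 2730, minus strand of chromosome 1, 94350756 to 94375154) had an FPKM of 32.3 (31.6 to 33.1) in H2087 compared with 4.63 (4.38 to 4.88) in H596, a 6.99-fold difference. Both subunits were thus lower in H596 by similar factors, with log2 differences of -3.04 and -2.57. The catalytic subunit exceeded the modifier in both libraries, 5.55 times in H2087 and 4.54 times in H596, in FPKM.

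TXNRD1 and SRXN1 act on the thioredoxin side of the response. TXNRD1 (gene 7296, plus strand of chromosome 12, 104609557 to 104744085) encodes the cytosolic thioredoxin reductase, a selenoprotein that uses NADPH. Its FPKM was 499.7 (497 to 503) in H2087 compared with 33.2 (32.5 to 34.0) in H596, a 15.0-fold difference. TXNRD1 alone took 0.205% of all estimated counts in H2087 and 0.0138% in H596. The gene EID3 lies within it on the same strand and held 8 and 28 counts, far below those of TXNRD1. SRXN1 (gene 140809, minus strand of chromosome 20, 627268 to 634014) encodes sulfiredoxin, which repairs overoxidized peroxiredoxins. Its FPKM was 55.3 (54.0 to 56.6) in H2087 compared with 20.9 (20.2 to 21.7) in H596, a 2.64-fold difference. SRXN1 was among the targets with the smallest differences, and TXNRD1 went from 9.03 times the SRXN1 level in H2087 to 1.59 times in H596.

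HMOX1 encodes the inducible heme oxygenase, which opens heme into biliverdin, iron and carbon monoxide. HMOX1 (gene 3162, plus strand of chromosome 22, 35777060 to 35790207) had an FPKM of 21.0 (19.996 to 22.1) from 1601 counts in H2087 compared with 1.85 (1.59 to 2.15) from 167 counts in H596. The difference was 11.3-fold in FPKM and -2.95 on the log2 scale, which understates it because 1 is added to a low level. HMOX1 and OSGIN1 had the fewest counts in H596 and therefore the widest relative intervals.

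ME1 encodes the cytosolic malic enzyme, which makes NADPH from malate. ME1 (gene 4199, minus strand of chromosome 6, 83920110 to 84140938) had an FPKM of 35.6 (34.7 to 36.5) in H2087 compared with 14.2 (13.7 to 14.7) in H596, a 2.51-fold difference and the smallest of the targets. OSGIN1 (gene 29948, plus strand of chromosome 16, 83986827 to 83999937) encodes a growth inhibitor induced by oxidative stress. Its FPKM was 10.7 (10.1 to 11.4) from 996 counts in H2087 compared with 1.74 (1.51 to 1.999) from 192 counts in H596, a 6.17-fold difference.

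The order of the genes by FPKM changed between the libraries. In H2087 it was TXNRD1, NQO1, GCLC, SRXN1, NFE2L2, ME1, GCLM, HMOX1, KEAP1 and OSGIN1, and KEAP1 and OSGIN1 were the only neighbours in this order whose intervals overlapped. In H596 it was NFE2L2, KEAP1, TXNRD1, GCLC, SRXN1, ME1, NQO1, GCLM, HMOX1 and OSGIN1, with overlapping intervals for GCLC and SRXN1 and for HMOX1 and OSGIN1. The regulators thus headed the H596 order, whereas in H2087 the inhibitor was in place 9. In H2087, 3 targets, TXNRD1, NQO1 and GCLC, had an FPKM of at least 100, the level the study used for high expression. The paper describes this level for H2087 only. None of the 10 genes reached it in H596.

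The mean FPKM was at least 1 for all 10 genes, which therefore entered the comparison with the rest of the transcriptome. Of them, 8 were at least 2-fold lower in H596 on the log2(FPKM + 1) scale, against 14.2% of all genes compared, and 1 (KEAP1) was at least 2-fold higher, against 18.2%. The median log2 difference was -2.33 over the 10 genes and -2.76 over the 8 targets, beside 0.12 over all genes. The genes were proposed with earlier results of these libraries known, so this count is a description. Among the targets, the share of all genes as low or lower in H596 ran from 0.291% for NQO1 and 0.851% for TXNRD1 to 9.56% for SRXN1 and 10.6% for ME1. SRXN1 and ME1 thus lay nearest to the limit, with log2 differences of -1.36 and -1.27, and -1.48 and -1.39 relative to the median of all genes.

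**Figure D3:**
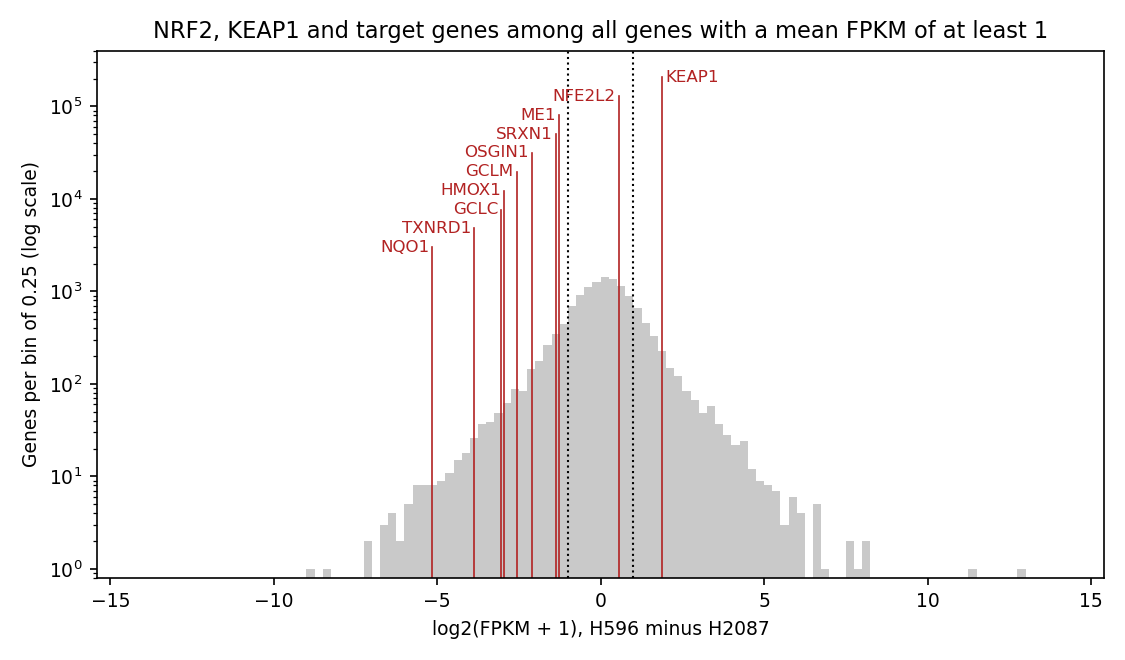
Histogram of the differences in log2(FPKM + 1), H596 minus H2087, over the 13048 genes whose mean FPKM was at least 1 (count axis on a log scale), with the 10 genes marked by red lines whose heights only separate the names; dotted lines mark the limits of 2-fold. The 8 targets lie left of the lower limit, from NQO1 at -5.15 to ME1 at -1.27, NFE2L2 lies between the limits and KEAP1 lies beyond the upper limit.

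The transcripts of each gene were examined to see whether the differences came from single isoforms. NFE2L2 has 8 listed transcripts with starts at 178129859 (3 transcripts) and 178128859 (5 transcripts). The 5 transcripts that begin at 178128859 held 84.6% of the NFE2L2 FPKM in H2087 and 86.4% in H596, and NM_001145412 was the most abundant, with an FPKM of 18.7 and 26.1. NM_006164 had an FPKM of 3.58 and 4.84. NM_001313900 held 7.34% of the FPKM in H2087 and 12.6% in H596, and NM_001313901 had 0 counts in both.

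KEAP1 has 2 listed transcripts with different starts. NM_203500, which begins at 10614054, had an FPKM of 7.69 in H2087 compared with 24.2 in H596. NM_012289, which begins at 10613481, had an FPKM of 4.13 in H2087 compared with 22.0 in H596, and its share of the gene was 35.0% in H2087 and 47.6% in H596. Both KEAP1 transcripts were therefore higher in H596.

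Among the targets, 1 transcript or 1 start held nearly all of the signal. NM_000903 held 89.1% of the NQO1 FPKM in H2087 and 86.1% in H596, and all 4 NQO1 transcripts were lower in H596, by 19.1-fold to 40.9-fold. In TXNRD1, 6 of the 7 transcripts begin at 104680460, and NM_182729 and NM_003330 had the highest FPKM, 295 and 127 in H2087 and 17.8 and 12.0 in H596. The share of NM_182729 was 59.0% and 53.6%, and that of NM_003330 was 25.4% and 36.1%. NM_001093771, which begins upstream at 104609557, had 5 counts in H2087 and 8 in H596. NM_001498 held 99.1% of GCLC in H2087 and 100.0% in H596, and NM_002061 held 95.7% and 94.3% of GCLM. HMOX1, ME1, SRXN1 and OSGIN1 have 1 listed transcript each. How reads were divided between isoforms that share most exons is an estimate whose error is not given.

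**Figure D4:**
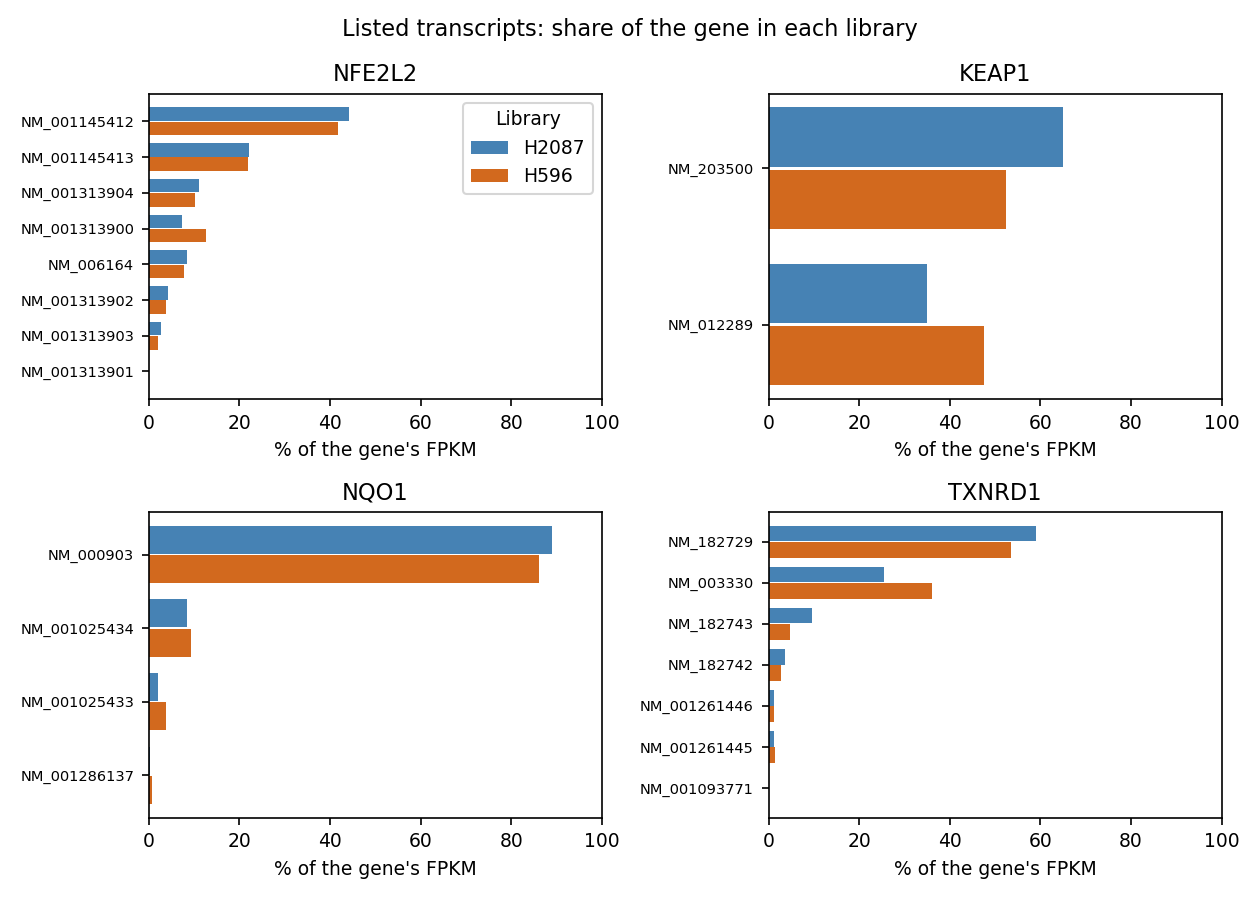
Share of the gene's FPKM held by each listed transcript of NFE2L2, KEAP1, NQO1 and TXNRD1, in percent, with H2087 in blue and H596 in orange. The same transcript leads in both libraries for all 4 genes, with NM_012289 of KEAP1 at 35.0% and 47.6% and NM_003330 of TXNRD1 at 25.4% and 36.1%.

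The other genes of the pathway were less uniform. Of 96 genes in 8 lists, 94 had a mean FPKM of at least 1, of which 21 (22.3%) were at least 2-fold lower in H596, 13 (13.8%) were at least 2-fold higher, and 60 differed by less. These counts and those of each list below are on the log2(FPKM + 1) scale, on which a gene just past 2-fold in FPKM can miss the limit. Over all genes compared, 14.2% were lower and 18.2% were higher. The median log2 difference was -0.23 for the glutathione list, -0.18 for thioredoxin and peroxiredoxin genes, -0.66 for NADPH supply, 0.16 for heme and iron, -0.08 for detoxification enzymes, -0.45 for exporters, 0.09 for superoxide and peroxide enzymes and 0.04 for NRF2 partners. The sign of the last pair turned negative with TMM scaling of the counts (-0.16 and -0.08), and that of the glutathione list was lost with the highest single transcript of each gene (0.00). The median of the exporters was -1.17 with TMM scaling.

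Among 13 compared genes for proteins that degrade, pair with or resemble NRF2, 2 were lower and 2 were higher in H596. Of all genes compared, 14.2% were lower and 18.2% higher. SQSTM1, whose product p62 binds KEAP1 and is itself encoded by an NRF2 target, had an FPKM of 559.8 (556 to 564) in H2087 compared with 129 (127 to 131) in H596. MAFF, a small MAF partner, had an FPKM of 8.19 in H2087 compared with 3.06 in H596. NFE2L1, a relative of NRF2, had an FPKM of 31.8 in H2087 compared with 67.2 in H596, and CREBBP, a coactivator, had one of 8.36 in H2087 compared with 18.6 in H596. The ligase scaffold CUL3 had an FPKM of 12.7 in H2087 compared with 13.1 in H596, and the repressor BACH1, which competes for the same elements, had one of 4.94 and 10.5, a log2 difference of 0.95, just under the limit of 2-fold on this scale. CUL3 and BACH1 were chosen for mention after their values were seen.

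The NADPH list had 5 of 14 genes lower and 0 higher in H596, beside 14.2% and 18.2% of all genes compared. TKT, a transketolase of the pentose phosphate pathway, had an FPKM of 613 in H2087 compared with 289 in H596. ME3, the mitochondrial relative of ME1, had an FPKM of 13.2 in H2087 compared with 0.265 in H596.

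In the glutathione list, 3 of 14 genes were lower and 2 were higher in H596, beside 14.2% and 18.2% of all genes compared. SLC7A11, the cystine importer that supplies cysteine for glutathione and is a known target of NRF2, had an FPKM of 27.6 (27.2 to 28.1) in H2087 compared with 3.46 (3.31 to 3.62) in H596, a 7.98-fold difference. Its heavy chain SLC3A2 had an FPKM of 169 in H2087 compared with 314 in H596. GPX3, a secreted glutathione peroxidase, had an FPKM of 77.7 from 6658 counts in H2087 compared with 0 counts in H596, which is at least 2618-fold higher in H2087 when 3 counts are allowed. GPX2 and CHAC1 were higher in H596, with an FPKM of 4.13 and 4.89 in H2087 compared with 11.6 and 19.0 in H596.

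Of 14 thioredoxin and peroxiredoxin genes, 10 differed by less than 2-fold on the log2(FPKM + 1) scale, 1 was lower and 3 were higher in H596. Over all genes compared, 14.2% were lower and 18.2% were higher. PRDX3, the mitochondrial peroxiredoxin, was the 1 lower gene (FPKM of 163 in H2087 compared with 43.0 in H596). TXNIP, the thioredoxin inhibitor, had an FPKM of 86.6 (85.1 to 88.1) in H2087 compared with 431 (428 to 435) in H596, and SESN1, a stress-induced sestrin, had one of 1.82 in H2087 compared with 7.68 in H596. PRDX1, with the highest mean of both libraries, had an FPKM of 450.0 in H2087 compared with 292 in H596.

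Of 10 heme and iron genes, 1 was lower and 2 were higher in H596, beside 14.2% and 18.2% of all genes compared. FTL, the ferritin light chain, had an FPKM of 2849 in H2087 compared with 353 in H596, an 8.07-fold difference, whereas the heavy chain FTH1 had one of 2334 and 1687. Ferritin genes have many processed pseudogenes, so their values are uncertain. BLVRB, a biliverdin reductase, had an FPKM of 46.1 in H2087 compared with 117 in H596, and the heme transporter SLC48A1 had one of 12.0 and 30.9.

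Detoxification enzymes differed in both directions, with 6 of 19 lower and 3 higher in H596, beside 14.2% and 18.2% of all genes compared. AKR1C3, an aldo-keto reductase, had an FPKM of 46.3 in H2087 compared with 0.197 from 14 counts in H596, and AKR1B1 had one of 167 and 28.4. ALDH3A1, an aldehyde dehydrogenase that is in this list as a known NRF2 target, had an FPKM of 0.556 in H2087 compared with 398 in H596, the opposite direction to NQO1. UGT1A6 had 0 counts in H2087 and an FPKM of 43.7 in H596, at least 1352-fold higher when 3 counts are allowed. It shares exons with other UGT1A genes, and the AKR1C genes resemble each other in sequence, so the UGT1A6 and AKR1C3 values are uncertain.

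Of 6 conjugate exporters, 3 were lower and 1 was higher in H596, beside 14.2% and 18.2% of all genes compared. ABCC3 had an FPKM of 21.5 (21.0 to 22.1) in H2087 compared with 1.80 (1.64 to 1.96) in H596, and ABCG2 had one of 3.34 and 0.342. ABCC5 had an FPKM of 9.85 in H2087 compared with 24.6 in H596, and ABCC1, with the highest mean of both libraries, had one of 17.5 and 24.4. None of the 4 compared genes for superoxide and peroxide enzymes differed 2-fold on this scale, and SOD1, the most abundant in both libraries, had an FPKM of 222 in H2087 compared with 116 in H596.

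**Figure D5:**
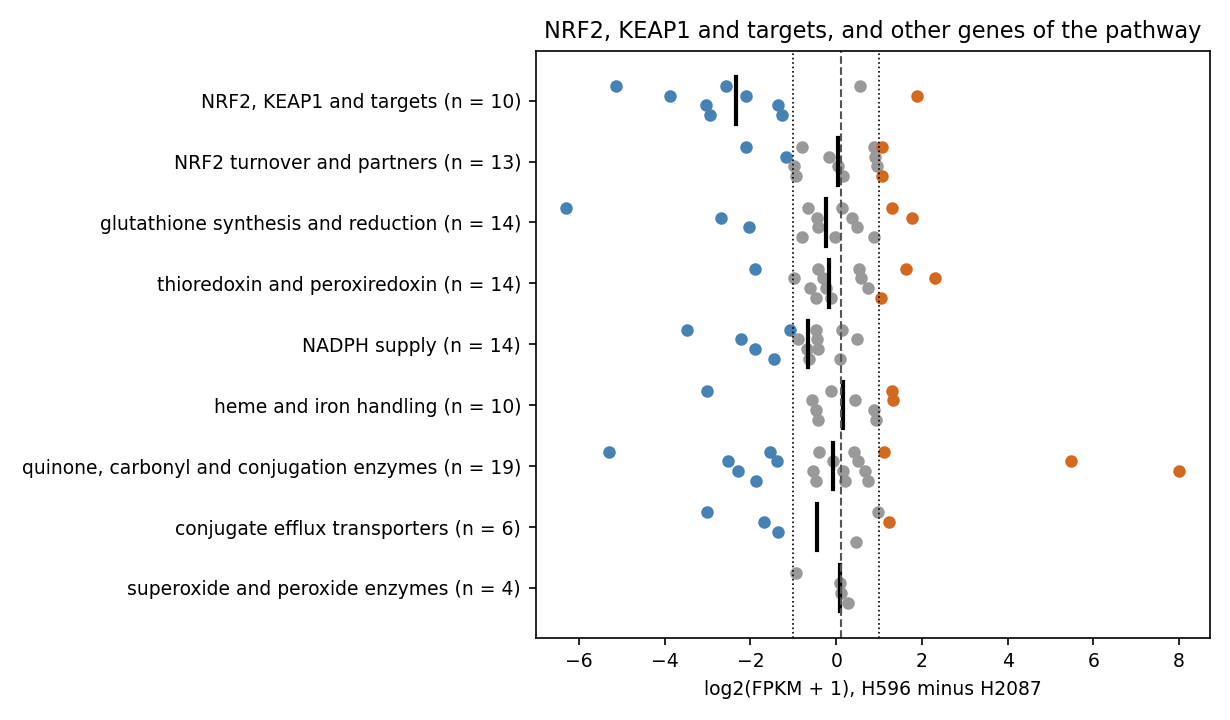
Difference in log2(FPKM + 1), H596 minus H2087, of NRF2, KEAP1 and the 8 targets (top line) and of the compared genes of 8 pathway lists. Blue points are at least 2-fold lower and orange points at least 2-fold higher in H596, black bars are medians, the dashed line is the median of all genes (0.12) and dotted lines are the limits of 2-fold; the medians are -2.33 for the top line and -0.66 for NADPH supply.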

How the data were processed

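Gene expression was measured in 1 library each of H2087 and H596 cells. Per the labels, the submitters' processing notes and the paper's methods, total RNA was made into stranded mRNA libraries, and the authors trimmed reads with Trimmomatic, aligned them to hg19 using HISAT2 2.0.5 and estimated abundance with StringTie 1.3.3b. The authors deposited FPKM values and estimated counts for 27685 genes and 63714 transcripts; how the estimated counts were derived is not stated. FPKM was used as deposited. For the 95% intervals, the Wilson method was applied to each gene as a share of the summed counts (46961500 in H2087 and 55387847 in H596), and 3 counts were the limit for a count of 0; if a fragment was counted as 2 reads, they are too narrow. Differences were taken as log2(FPKM + 1), H596 minus H2087, for the 13048 genes whose mean FPKM was at least 1, which understates the change of low genes. With 1 library per cell line no test was run. The scripts were tested on simulated data. The genes, lists and search windows were chosen with earlier results of these data known; from each list the 2 genes with the largest difference in each direction past 2-fold and the gene with the highest mean FPKM are named, except for 1 gene that is not reported here. Sequences were read from GRCh37 and from RefSeq promoters of GRCh38.p14, and strands from GENCODE. Alternatives were a pseudocount of 0.1, other filters and limits, TPM, TMM scaling of the counts (edgeR 4.0.16), centring on the median difference, and the highest single transcript. Python 3.11.15, pandas 2.3.3 and scipy 1.17.1 were used.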

Additional observations from a re-analysis of the deposited data

How the results depend on the processing

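KEAP1 stayed the only one of the 10 genes at least 2-fold higher in H596 under the 9 alternatives, and 8 genes stayed lower, except for 7 with a mean FPKM of at least 10, which leaves out OSGIN1, and 6 with a limit of 3-fold, which leaves out SRXN1 and ME1. All 50 recomputed differences of single genes kept their sign, with a range of -5.37 to -5.05 for NQO1, -1.44 to -1.12 for ME1, 0.43 to 0.74 for NFE2L2 and 1.54 to 2.11 for KEAP1. The intervals of all 10 genes stayed apart with 2 reads per fragment. They cover counting error only, and the share of all genes whose intervals stay apart was not counted, so this is no trait of the 10 genes. The promoter count stayed at 4 of 9 genes in the 250 bases before the start. By promoter it was 5 of 12, beside 10.9% of all 35116 promoters. Over all genes, 2376 were higher and 1850 lower in H596; with a mean FPKM of at least 10 these counts were 1045 and 941, since fewer genes were compared, with a limit of 1.5-fold 3998 and 3126, and with 3-fold 1143 and 956. The excess of higher genes depended on the scaling, with 3212 higher and 1683 lower in TPM, 2313 and 2265 with TMM scaling, and 2042 and 2120 after centring. The medians of 2 lists turned sign: that of NRF2 partners was 0.04, and -0.08 both with TMM scaling and after centring, and that of superoxide and peroxide enzymes was 0.09, -0.16 and -0.03; that of the exporters was -0.45, and -1.17 with TMM scaling; the cause was not tested. No paired analysis was possible because H2087 and H596 have 1 library each, and leaving out a library would leave nothing to compare. Depth limits HMOX1 and OSGIN1 in H596, with 167 and 192 counts.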

Other observations

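The 10 genes lie on 8 chromosomes, and the 40 nearest compared neighbours of each (29 for SRXN1, near the end of chromosome 20) gave these median differences in log2(FPKM + 1), H596 minus H2087. Around the targets the medians ran from -0.32 for GCLM to 0.52 for GCLC. NQO1 differed by -5.15 beside a neighbour median of -0.23, TXNRD1 by -3.87 beside -0.27, GCLC by -3.04 beside 0.52, and HMOX1 by -2.95 beside 0.07. OSGIN1 differed by -2.10 beside -0.29, SRXN1 by -1.36 beside 0.14, and ME1 by -1.27 beside 0.13. The neighbours of NFE2L2 had a median of -0.27, while NFE2L2 itself differed by 0.55. KEAP1 was the gene whose neighbours stood farthest from 0, at 0.95. Neighbours were examined after the differences of the 10 genes were known.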
